A study of Mus musculus with 4 samples.

Results

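The genes examined here encode the machinery that copies DNA and supplies it during S phase. They were taken by symbol from a list of 43 genes, and 41 of the 43 had a row among the 18138 gene identifiers of the array table. Cdc45 and Orc1 were found under their older names CDC45L and ORC1L, and Gins1 and Gins2, subunits of the helicase activator GINS, had no row under these symbols. The 41 genes were read by 69 of the 25697 probes, and 15 of them had several probes. Pola1, the catalytic subunit of DNA polymerase alpha, and Slbp, the histone mRNA stem-loop binding protein, were not detected on any array, which left 39 genes to compare.

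RNA came from C57BL6/J mouse bone marrow cells that carry B220, a surface marker of the B lineage. The groups were CD43- cells of Btg1-/-;Btg2-/- mice (dKO), CD43- cells of wild-type mice (WT), CD43+ cells of dKO mice and CD43+ cells of WT mice, with 1 Illumina MouseRef-8 array for each. Per the labels, CD43+ cells correspond to Hardy fractions A, B and C and CD43- cells to fractions D, E and F, which in the usual scheme run from pre-pro-B to pro-B cells and from pre-B to mature B cells. BTG1 and BTG2 restrain proliferation and recruit the CCR4-NOT complex, which shortens mRNA tails. The labels do not give the promoter or stage of the deletion, the age or sex of the mice, or how many mice gave each RNA. With 1 array per group, no difference between groups had a replicate check.

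Replication starts in G1, when the origin recognition complex, CDC6 and CDT1 load the ring-shaped helicase made of MCM2 to MCM7 onto DNA, and the helicase is switched on in S phase with CDC45 and GINS. Polymerase alpha with primase lays down primers, the RFC complex loads the sliding clamp PCNA, and polymerases epsilon and delta extend the strands. E2F transcription factors switch on many of these genes at the border of G1 and S phase. In marrow, pro-B and large pre-B cells divide rapidly, whereas small pre-B and immature B cells are largely resting.

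The arrays differed little in quality: the probes detected made up 39.5% (dKO) and 40.2% (WT) in CD43- cells and 43.3% (dKO) and 42.8% (WT) in CD43+ cells, and the median bead SE was 4.00% to 4.06% of the signal. Mean deposited signals were 648.1 and 662.1 in dKO cells (CD43- and CD43+) and 555.2 and 550.7 in WT cells, so before normalization the brightness of an array cannot be told apart from its genotype. Spn, which encodes CD43, was detected on both CD43+ arrays and on neither CD43- array, but it was near background on all of them. Its deposited signals were 179.6 in dKO and 164.9 in WT CD43+ cells, and 157 in dKO and 148.6 in WT CD43- cells. Of 9 B-lineage markers on the table, all 9 were detected on both CD43- arrays and 8 on each CD43+ array. The CD43+ arrays also carried all 8 natural killer cell, all 6 T-cell and 7 of 8 plasmacytoid dendritic cell markers. Btg1 had signals of 8114.9 in dKO and 19425.1 in WT CD43- cells and of 3459.3 in dKO and 8610.2 in WT CD43+ cells, as deposited. After background correction and normalization, its log2 differences were -1.45 in CD43- and -1.72 in CD43+ cells. Whether its probe lies in the deleted part is unknown here, and Btg2 was not detected on any array.

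Values below are normalized signals, the background-corrected and quantile-normalized probe brightness on a linear scale, for the brightest probe of each gene. Differences are on the log2 scale, dKO minus WT or CD43- minus CD43+. The bead SE beside a difference comes from the spread of beads within both arrays and holds no variation between mice. In these sorted bulk samples, fewer cells of a type and less RNA per cell cannot be told apart.

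**Figure D1:**
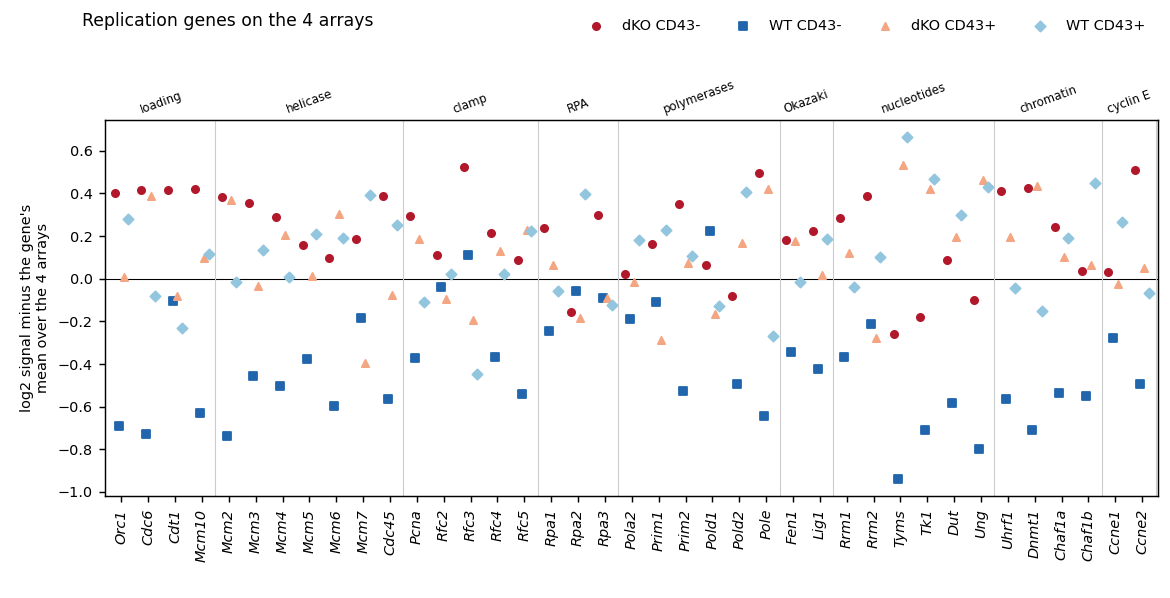
Normalized log2 signal minus the gene's own mean over the 4 arrays (vertical axis) for the 39 detected replication genes (horizontal axis, grouped by role), 1 point per array. The WT CD43- array is the lowest of the 4 for 30 of the 39 genes and the dKO CD43- array is the highest for 23.

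The clearest pattern lay in the CD43- cells, where replication genes were higher in dKO than in WT. Of the 39 genes, 37 were above 0 in dKO minus WT (50.5% of the 8033 genes tested were), and 2 were below it (49.3% of all genes were). These were Rpa2 at -0.10 (bead SE 0.11) and Pold1 at -0.16 (bead SE 0.07), by their brightest probes. With genes detected on 1 of the 2 arrays held at their bound, 22 genes reached 1.5-fold higher (8.51% of all genes did) and 0 reached 1.5-fold lower (6.52%). Past 2-fold, 6 were higher (2.3%) and 0 lower (1.23%). Orc1, detected in dKO only, was the one replication gene so held. By measured values the counts with Orc1 were 23 (10.3%), 0 (8.86%), 7 (3.62%) and 0 (2.54%). The median difference over the 39 genes was 0.65, or 0.63 with Orc1 at its bound, against a median of 0.01 over all genes tested.

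The same contrast in CD43+ cells gave no such shift. There 18 of the 39 genes were above 0 (54.2% of the 8720 genes tested) and 21 below it (45.7%). Pole and Dnmt1 were at least 1.5-fold higher (2 genes, with 9.14% of all genes), Mcm7 was at least 1.5-fold lower (1 gene, with 7.71%), and 0 genes differed 2-fold in either direction (1.7% of all genes were 2-fold higher and 2.02% 2-fold lower). The median was -0.03, against 0.04 over all genes tested. With arrays scaled to a common median instead of quantile normalization, 32 of the 39 genes were above 0 in CD43+ cells, with a median of 0.29 against 0.32 over all genes, and 39 of 39 in CD43- cells, with a median of 0.92 against 0.25. The 2 genotype comparisons share no array.

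**Figure D2:**
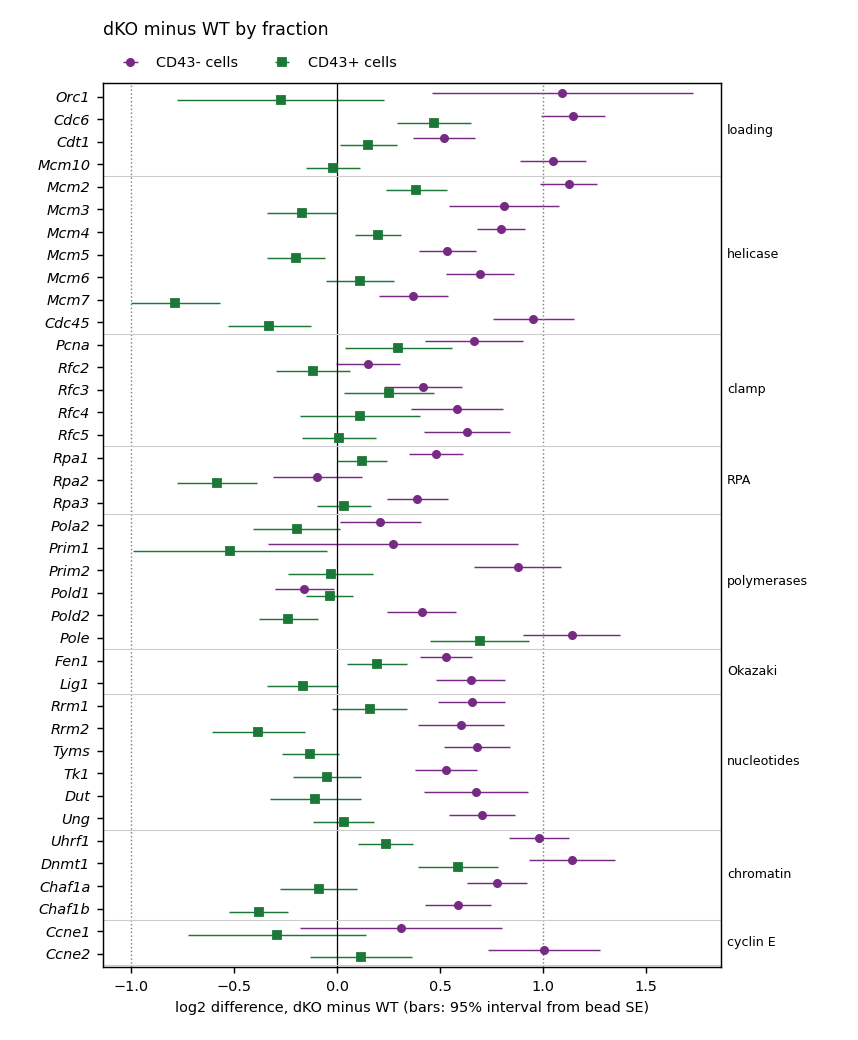
Log2 difference, dKO minus WT, of each of the 39 genes in CD43- and in CD43+ cells, with bars for the 95% interval from bead error and dotted lines at 2-fold. In CD43- cells 37 of 39 points lie right of 0, and in CD43+ cells 18 do.

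The group called origin loading here held Orc1, Cdc6 and Cdt1, and also Mcm10, which acts after loading. Its median was 0.78 in CD43- cells with Orc1 at its bound (1.07 by measured values) and 0.07 in CD43+ cells. Cdc6, which loads the helicase together with the origin recognition complex, had normalized signals of 831 in dKO and 376 in WT CD43- cells and of 816 in dKO and 589 in WT CD43+ cells. WT CD43- cells were thus the low sample, and the difference was 2.21-fold in CD43- cells (1.14, bead SE 0.08) and 1.38-fold in CD43+ cells (0.47, bead SE 0.09). Orc1, the subunit of the origin complex that varies over the cell cycle, was dim, at 68.7 in dKO and 32.2 in WT CD43- cells and 52.2 in dKO and 63.1 in WT CD43+ cells. It was not detected in WT CD43- cells, so it was at least 1.41-fold higher in dKO there, and its difference in CD43+ cells was -0.27 (bead SE 0.26). Mcm10, which helps to activate the loaded helicase, was at 1599 in dKO and 773 in WT CD43- cells, a 2.07-fold difference, and at 1278 in dKO and 1295 in WT CD43+ cells. Cdt1, the other loading factor, was higher by 0.52 in dKO CD43- cells and by 0.15 in dKO CD43+ cells, and it was at its lowest, 1549, in WT CD43+ cells.

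All 7 helicase genes on the table were above 0 in dKO CD43- cells and 5 reached 1.5-fold, with a median of 0.79, against a median of -0.17 in CD43+ cells. Mcm2 was at 1609 in dKO and 739 in WT CD43- cells (2.18-fold; 1.12, bead SE 0.07), and at 1593 in dKO and 1221 in WT CD43+ cells (0.38, bead SE 0.08). The remaining core subunits differed by 0.81 (Mcm3), 0.79 (Mcm4), 0.53 (Mcm5), 0.69 (Mcm6) and 0.37 (Mcm7) in CD43- cells. In CD43+ cells the same subunits differed by -0.17, 0.20, -0.20, 0.11 and -0.78. Although their products work in 1 ring, the subunits did not move by the same amount in either fraction. Mcm7 had the lowest difference of the 6 in both fractions, and its normalized signals were 537 in dKO and 416 in WT CD43- cells, against 359 in dKO and 619 in WT CD43+ cells. Cdc45, which joins the ring to make the active helicase, was at 678 in dKO and 350.3 in WT CD43- cells (0.95, bead SE 0.10) and at 491 in dKO and 617 in WT CD43+ cells (-0.33, bead SE 0.10).

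Genes of chromatin copying and DNA methylation were likewise higher in dKO CD43- cells, by 1.5-fold to 2.20-fold. Uhrf1, which brings the maintenance methyltransferase to newly copied DNA, was at 9188 in dKO and 4661 in WT CD43- cells (1.97-fold; 0.98, bead SE 0.07) and at 7896 in dKO and 6708 in WT CD43+ cells (0.24). Dnmt1, that methyltransferase, was at 1900 in dKO and 863 in WT CD43- cells (2.20-fold) and at 1911 in dKO and 1273 in WT CD43+ cells (1.5-fold). The 2 dKO levels of Dnmt1 were nearly the same, and WT CD43- cells were lowest. Chaf1a and Chaf1b, subunits of the CAF-1 histone chaperone, differed by 0.78 and 0.59 in CD43- cells and by -0.09 and -0.38 in CD43+ cells. The group median was 0.88 in CD43- cells, with 4 of 4 detected genes at least 1.5-fold higher, and 0.07 in CD43+ cells.

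Polymerase and fork genes moved less and less evenly. Pole, the catalytic subunit of the leading-strand polymerase epsilon, was at 496 in dKO and 225 in WT CD43- cells (2.20-fold; 1.14, bead SE 0.12) and at 471 in dKO and 292 in WT CD43+ cells (1.61-fold; 0.69, bead SE 0.12). It was the one polymerase gene at least 1.5-fold higher in both fractions, and Dnmt1 was the only other member so. Pold1, the catalytic subunit of polymerase delta, went the other way, at 4784 in dKO and 5341 in WT CD43- cells (-0.16, bead SE 0.07), with 4083 in dKO and 4186 in WT CD43+ cells. The second delta subunit, Pold2, differed by 0.41 in CD43- and by -0.24 in CD43+ cells. Of the genes of the alpha and primase complex, Prim2 was higher by 0.88 in dKO CD43- cells, whereas Pola2 and the dim Prim1 differed by 0.21 and 0.27 (bead SE 0.31 for Prim1). The polymerase and primase median was 0.34 in CD43- and -0.12 in CD43+ cells.

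Among clamp genes, Pcna was at 1010 in dKO and 638 in WT CD43- cells (0.66, bead SE 0.12) and at 939 in dKO and 764 in WT CD43+ cells (0.30, bead SE 0.13). The loader genes Rfc5, Rfc4, Rfc3 and Rfc2 differed by 0.63, 0.58, 0.42 and 0.15 in CD43- cells, and 2 of the 5 clamp and loader genes reached 1.5-fold. The RPA genes, whose products coat single-stranded DNA, differed by 0.48 (Rpa1), 0.39 (Rpa3) and -0.10 (Rpa2), with none at 1.5-fold. Fen1 and Lig1, the flap nuclease and ligase that join Okazaki fragments, differed by 0.53 and 0.65 in CD43- cells and by 0.19 and -0.17 in CD43+ cells.

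Nucleotide supply genes had a median of 0.66 in CD43- cells, where 5 of 6 reached 1.5-fold higher in dKO, and of -0.08 in CD43+ cells. Ribonucleotide reductase makes deoxynucleotides from ribonucleotides, and the genes of its subunits, Rrm1 and Rrm2, differed by 0.65 and 0.60 in CD43- cells and by 0.16 and -0.38 in CD43+ cells. Tyms, which makes the thymidine nucleotide, Dut, which removes dUTP, and Ung, which excises uracil from DNA, differed by 0.68, 0.67 and 0.70 in CD43- cells. Tk1, the salvage kinase for thymidine, differed by 0.53. In CD43+ cells these 4 differed by -0.13, -0.11, 0.03 and -0.05. Ccne2, a cyclin of the G1 to S transition, was at 285 in dKO and 142 in WT CD43- cells (2.01-fold; 1.0, bead SE 0.14), with 207 in dKO and 191 in WT CD43+ cells. Its dimmer relative Ccne1 differed by 0.31 in CD43- cells, with a bead SE of 0.25.

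Promoters of these genes were searched in the RefSeq table (GRCm38.p6), from 250 bases before to 50 after each start, for letters bound by E2F (TTTGGCGC, TTTCGCGC, TTTCCCGC or TTTGGCGG, both strands). Of 36 replication genes with an entry, 16 held at least 1 match (44.4%), against 730 of 27025 genes (2.7%) and 2.37% of the 32851 promoters in the table. The CCAAT box (CCAAT, both strands) was in 22 of 36 (61.1%), against 41.1% of genes, and the CHR element of late cell-cycle genes (TTTGAA or TTCGAA, both strands) in 7 of 36 (19.4%), against 21.7%. Below are the 250 bases before the start, 5′ to 3′ on the gene's strand, of 4 genes and then of Mcm2. The 4 had the highest dKO minus WT difference in CD43- cells among genes with 1 entry, detection on both CD43- arrays and a match within these 250 bases. Mcm2 was the highest with 1 entry, detection on both CD43- arrays and no match in the whole window. Orc1, which holds a match but was not detected in WT CD43- cells, could not enter this choice. Genes such as Mcm3 and Lig1, whose matches lie after the start, are counted above and not shown. Capitals mark the E2F letters. The windows are chr11:98907901-98908150 (plus strand) for Cdc6, chr17:56040166-56040415 (plus) for Chaf1a, chr1:128359706-128359955 (minus) for Mcm6, chr8:75109259-75109508 (plus) for Mcm5 and chr6:88898781-88899030 (minus) for Mcm2.
Cdc6: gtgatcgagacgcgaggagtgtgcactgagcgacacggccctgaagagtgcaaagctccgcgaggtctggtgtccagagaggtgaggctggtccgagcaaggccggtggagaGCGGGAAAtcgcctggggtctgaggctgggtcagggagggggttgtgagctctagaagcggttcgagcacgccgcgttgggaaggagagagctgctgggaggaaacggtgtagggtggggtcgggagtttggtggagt
Chaf1a: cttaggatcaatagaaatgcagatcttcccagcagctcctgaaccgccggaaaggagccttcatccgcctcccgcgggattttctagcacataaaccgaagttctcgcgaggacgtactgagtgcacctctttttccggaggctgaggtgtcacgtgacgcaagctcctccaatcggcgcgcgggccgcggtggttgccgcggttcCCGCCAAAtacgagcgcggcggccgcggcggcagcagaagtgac
Mcm6: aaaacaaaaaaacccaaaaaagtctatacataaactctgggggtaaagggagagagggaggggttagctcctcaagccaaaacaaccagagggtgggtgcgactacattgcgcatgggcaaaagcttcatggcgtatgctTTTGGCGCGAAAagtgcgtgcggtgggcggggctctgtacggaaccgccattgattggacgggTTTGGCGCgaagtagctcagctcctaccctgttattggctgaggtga
Mcm5: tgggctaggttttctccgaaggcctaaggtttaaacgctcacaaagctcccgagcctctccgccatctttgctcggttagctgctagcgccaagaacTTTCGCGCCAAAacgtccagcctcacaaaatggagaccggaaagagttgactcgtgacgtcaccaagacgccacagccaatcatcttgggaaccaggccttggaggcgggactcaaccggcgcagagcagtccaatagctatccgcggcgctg
Mcm2: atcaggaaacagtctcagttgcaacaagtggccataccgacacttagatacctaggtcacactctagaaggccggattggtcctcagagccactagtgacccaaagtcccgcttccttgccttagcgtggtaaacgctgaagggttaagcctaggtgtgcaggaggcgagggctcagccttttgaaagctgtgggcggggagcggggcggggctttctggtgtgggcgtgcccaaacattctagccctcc

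Mcm6 held 3 matches, 2 of them overlapping, and Mcm5 held 2 that overlap, while Cdc6 and Chaf1a held 1 each. Mcm2, with none of these letters in its window, differed by 1.12 in CD43- cells. Cdc6 was at 1.14, Chaf1a at 0.78, Mcm6 at 0.69 and Mcm5 at 0.53. The printed genes were chosen by this difference, so their values cannot compare genes with and without a match. A match here describes letters and is no measure of binding.

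The step from CD43+ to CD43- cells looked different in the 2 genotypes. In dKO cells, 30 of the 39 genes were above 0 in CD43- minus CD43+ (54.2% of 8585 genes tested) and 9 below it (45.7%). Rfc3 and Rrm2 were at least 1.5-fold higher in CD43- cells (2 genes, with 15.3% of all genes), Tyms and Tk1 at least 1.5-fold lower (2 genes, with 17.7%), and 0 differed 2-fold in either direction (6.03% of all genes higher, 10.5% lower). In WT cells, 4 were above 0 (54% of 8629 genes tested) and 35 below it (45.9%), with 3 at least 2-fold lower (11%; 8.48% with genes at their bounds) and 0 past 2-fold higher (7.81%; 6.2% with bounds). In the same WT comparison, 17 were at least 1.5-fold lower with Orc1 at its bound (15.3% of all genes) or 18 by measured values (19.6%), and 0 were 1.5-fold higher (17.4% of all genes with bounds, 19.3% without). The median was 0.14 in dKO cells (all genes 0.05) and -0.56 in WT cells (all genes 0.06). The 4 genes above 0 in WT cells were Rfc3 (0.55), Pold1 (0.35), Cdt1 (0.13) and Rpa3 (0.03).

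The thymidine and uracil genes were lower in CD43- cells of both genotypes. Tyms was at 1053 in CD43- and 1829 in CD43+ cells of dKO mice, against 658 in CD43- and 2003 in CD43+ cells of WT mice, so it was 1.74-fold lower in dKO and 3.05-fold lower in WT CD43- cells. Both CD43- samples were below both CD43+ samples. Ung was at 993 in CD43- and 1468 in CD43+ cells of dKO mice (1.48-fold lower in CD43-). In WT mice it was at 610.4 in CD43- and 1435 in CD43+ cells (2.35-fold lower in CD43-). The fall of Ung in WT was -1.23 by this brightest probe and -0.18 by a dimmer probe detected on both WT arrays. On RMA values deposited by the authors, Ung differed by -0.02 in WT and by -0.44 in dKO. Tk1 was at 1006 in CD43- and 1524 in CD43+ cells of dKO mice and at 697 in CD43- and 1577 in CD43+ cells of WT mice (1.51-fold lower in dKO, 2.26-fold lower in WT). Rrm2 had no such order: it was higher by 0.67 in dKO CD43- cells and lower by 0.31 in WT CD43- cells.

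By role, the CD43- minus CD43+ medians were 0.36 in dKO and -0.51 in WT for origin loading (-0.70 in WT by measured values, without the bound for Orc1), 0.15 in dKO and -0.59 in WT for the helicase, 0.11 in dKO and -0.26 in WT for clamp and loader, 0.17 in dKO and -0.19 in WT for RPA, and 0.15 in dKO and -0.37 in WT for polymerases and primase. They were 0.11 in dKO and -0.47 in WT for Okazaki fragment joining, -0.33 in dKO and -1.03 in WT for nucleotide supply, 0.07 in dKO and -0.64 in WT for chromatin copying, and 0.26 in dKO and -0.49 in WT for cyclin E. Nucleotide supply was the one role with a median below 0 in dKO cells, and every role had a median below 0 in WT cells.

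**Figure D3:**
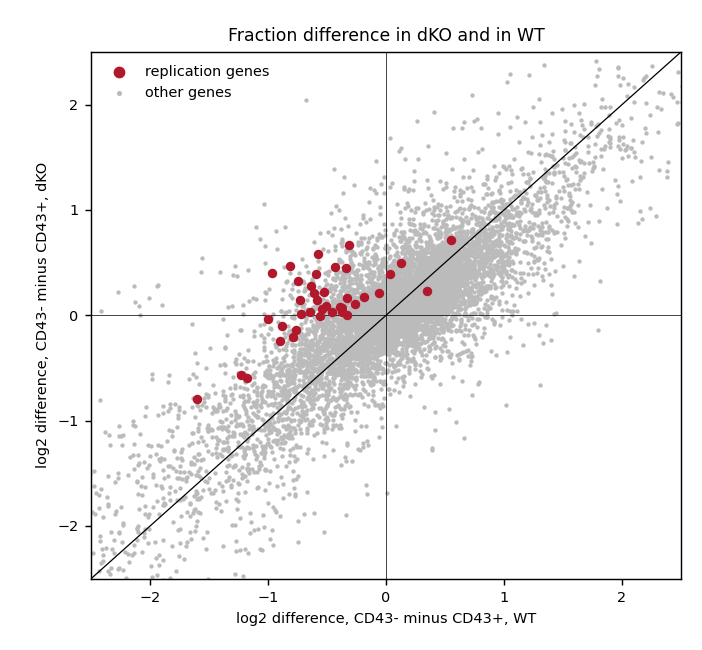
Log2 difference, CD43- minus CD43+, in dKO (vertical axis) against WT (horizontal axis), 1 point per gene, with replication genes in red and all other genes tested in both in grey. Of the 39 red points, 38 lie above the line of equal differences, and the exception is Pold1.

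The genotype difference in CD43- cells minus that in CD43+ cells was above 0 for 38 of the 39 genes, against 47.1% of the 7695 genes tested in both, with a median of 0.65 (all genes -0.02). Arithmetically this is also the dKO minus WT gap of the fraction differences. Of the genes detected on all 4 arrays it was greatest for Cdc45 (1.28, bead SE 0.14), Mcm7 (1.15, bead SE 0.14) and Mcm10 (1.07, bead SE 0.11), and Orc1, not detected in WT CD43- cells, was at 0.77 with that array at its bound. Pold1 was the exception at -0.12 (bead SE 0.09). Above 0 in CD43- and below 0 in CD43+ cells were 19 genes (14.7% of all genes were). Above 0 in both were 18, or 46.2%, near the 36.3% of all genes, and below 0 in both were 2, Rpa2 and Pold1 (31.4% of all genes). At least 1.5-fold higher in both fractions were 2 genes, 5.13% of the 39, against 2.72% of the 7695.

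The order of the 4 arrays shows the same pattern without a contrast. The dKO CD43- array had the highest value for 23 of the 39 genes (59%; 25.8% of all genes) and the lowest for 0. WT CD43- was the lowest array for 30 (76.9%; 26.9% of all genes) and the highest for 1. The dKO CD43+ array was highest for 4 genes (10.3%; 23.9% of all genes) and lowest for 6 (15.4%; 23.9%). The WT CD43+ array was highest for 11 (28.2%, near the 21.1% of all genes) and lowest for 3 (7.69%; 29.5%).

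Bead error was small beside most differences between the CD43- samples and between the WT fractions, and less so in the other comparisons. The 95% interval from bead error lay above 0 for 34 genes (87.2%; 26.6% of all genes) and below it for 1 (2.56%; 25.1%) in dKO against WT CD43- cells. In CD43+ cells it lay above 0 for 10 (25.6%; 27.3%) and below for 9 (23.1%; 22%). For CD43- against CD43+ it was above 0 for 16 (41%; 34.6%) and below for 5 (12.8%; 28.6%) in dKO cells, and above for 2 (5.13%; 36.1%) and below for 32 (82.1%; 30.2%) in WT cells. Prim1, Ccne1 and Orc1, the dimmest of the compared genes, had the widest bead errors.

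An additive limma fit of genotype and fraction over the 4 arrays was the one test available. It leaves 1 residual degree of freedom and takes a genotype difference that changes with the fraction as noise, so it is insensitive to the pattern above. On data simulated with a genotype effect only, equal in both fractions, the share of unchanged genes among its genotype calls was above the nominal level. Its adjusted p-values therefore cannot be taken as error rates. Calls for fraction were not simulated. For genotype, 0 of the 39 genes passed a Benjamini-Hochberg adjusted p of 0.05 in limma, with 2 of 9058 genes passing in all (0.0221% higher, 0% lower). The lowest adjusted p of a replication gene was 0.173, and 5 had an unadjusted p under 0.05, all higher in dKO (12.8%, against 17.9% of all genes): Pole (0.92), Dnmt1 (0.86), Cdc6 (0.81), Mcm2 (0.75) and Pcna (0.48). For fraction, 3 fell in CD43- relative to CD43+ cells (13% of all genes did) and 0 rose (10.3%). These were Tyms (-1.20, SE 0.24, limma adjusted p = 0.0299), Tk1 (-0.89, SE 0.21, adjusted p = 0.0418) and Ung (-0.90, SE 0.22, adjusted p = 0.0476). Over the alternatives, limma's adjusted p ran between 0.00076 and 0.057 for Tyms, 0.0019 and 0.142 for Tk1, and 0.0025 and 0.465 for Ung. Tk1 lost its call with the mean of detected probes (0.052), Ung without the filter (0.055), and all 3 on the authors' RMA values. Rfc3, at an adjusted p of 0.052 and a difference of 0.64, was called higher in CD43- cells without background correction, with offset 50 and among genes detected on all arrays. Without background correction, the genotype fit called 4 genes instead of 0, namely Pole, Dnmt1, Cdc6 and Mcm2.

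Where a gene had several probes, the others were set beside the brightest. In CD43- cells, 11 of 16 other detected probes (12 genes) had the same sign of dKO minus WT as the brightest, and in CD43+ cells 5 of 18 (13 genes) did. For CD43- against CD43+ the sign was shared by 15 of 16 in dKO and 16 of 17 in WT cells. Second probes of Cdc6, Mcm10 and Prim2 gave 1.05, 0.78 and 1.0 in CD43- cells, beside 1.14, 1.05 and 0.88 for the brightest, and -0.26, -0.27 and 0.11 in CD43+ cells, beside 0.47, -0.02 and -0.03. The second Cdc6 probe was not detected in WT CD43- cells, so its 1.05 rests on a value at background. The 4 probes of Lig1 gave 0.65, 1.12, 0.66 and -0.07 in CD43- cells and -0.17, 0.50, -0.05 and -1.15 in CD43+ cells. The Lig1 probe at 1.12 and 0.50 was not detected on either WT array. For Mcm4 and Ung, a dimmer probe went against the brightest in CD43- cells (-0.35 and -0.85), and so did the authors' RMA values (-0.06 and -0.23). That Ung probe was not detected in dKO CD43- cells. The second Rpa2 probe gave 0.37 in CD43- and 0.09 in CD43+ cells, beside -0.10 and -0.58 for the brightest.

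One probe of Mcm6 stood apart from the other 3. Its deposited signals were 221.7 in dKO and 2488.8 in WT CD43- cells and 254.7 in dKO and 3935.7 in WT CD43+ cells, so as deposited it was 11.2-fold lower in dKO CD43- and 15.5-fold lower in dKO CD43+ cells. After background correction and normalization it was 29.7-fold lower in dKO CD43- and 39.9-fold lower in dKO CD43+ cells. The brightest probe gave 4225.3 in dKO and 2141.7 in WT CD43- cells and 4961.3 in dKO and 3569.9 in WT CD43+ cells. Normalized differences of the 3 other probes were 0.69, 0.70 and 0.45 in CD43- cells and 0.11, -0.17 and -0.26 in CD43+ cells. Of 2604 other detected probes over all genes, this was the 1 probe that differed at least 8-fold from its gene's brightest probe in both fractions. Mcm6 lies on chromosome 1, as does Btg2, with 63 protein-coding genes between them in the RefSeq table, and whether the probe binds the dKO transcript as well as the WT one was not tested.

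**Figure D4:**
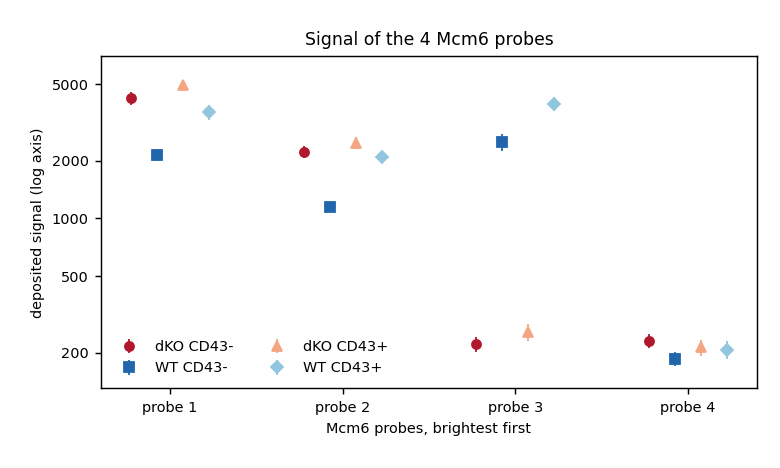
Deposited signal (vertical log axis, bars for the 95% interval from bead error) of the 4 Mcm6 probes (horizontal axis) on the 4 arrays, 1 point per array. The third probe is at 221.7 and 254.7 on the dKO arrays and at 2488.8 and 3935.7 on the WT arrays, and the other probes show no such gap.

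Other replication genes, from a wider list that held none of those above, moved in the same direction by less. Of 45, 41 were on the table and 34 were tested in CD43- cells. By measured values, 27 of the 34 were above 0 in dKO minus WT (50.5% of all genes were), and the median was 0.36. At least 1.5-fold higher were 9 (10.3% of all genes), and 1 was at least 1.5-fold lower (8.86%). Past 2-fold higher was 1, near the 3.62% of all genes. In CD43+ cells 20 of 35 were above 0, near the 54.2% of all genes, with a median of 0.05. There 0 were at least 1.5-fold higher (9.14% of all genes), and 3 were at least 1.5-fold lower, near the 7.71% of all genes. Among the largest differences in CD43- cells were those of the checkpoint adaptor Clspn (1.02), the fork protection gene Timeless (0.97) and the small polymerase delta subunit Pold4 (-0.74), with 0.39, 0.39 and -0.35 in CD43+ cells. For CD43- minus CD43+ the median of this list was 0.20 in dKO and -0.16 in WT cells.

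Of the E2F and pocket protein genes, 8 of 10 tested were above 0 in dKO CD43- cells (50.5% of all genes), with a median of 0.33. At least 1.5-fold higher (10.3% of all genes) were the activator E2f1 (0.74), the pocket protein gene Rbl1, itself an E2F target (0.83), and the dimerization partner Tfdp1 (0.64). In CD43+ cells these differed by 0.15, 0.35 and 0.03. E2f2 differed by 0.07 between genotypes in CD43- cells, while it was higher in CD43- than CD43+ cells by 1.57 in dKO and 1.52 in WT mice.

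Markers of cell content also differed between the CD43- samples. Plasmacytoid dendritic cell markers were above 0 in dKO for all 7 tested (50.5% of all genes), 4 at least 2-fold (3.62%), with a median of 1.44. Of these markers, Ccr9 was not detected on any array. Their deposited signals, before normalization, summed to 28535 in dKO and 19864 in WT CD43- cells. Natural killer markers summed to 3309 in dKO and 2041 in WT CD43- cells, with 3 of 8 detected on each array. Of these 3, 2 were above 0 and 1 below it, from -0.59 to 1.92, with a median difference of 0.69. T-cell markers summed to 2306 in dKO and 1433 in WT CD43- cells, with 3 of 6 detected and a median of 0.63. These sums include the undetected markers. In CD43+ cells, plasmacytoid dendritic cell markers summed to 82994 in dKO and 58020 in WT, with a median normalized difference of 0.20 over 7 tested. Natural killer markers there summed to 18105 in dKO and 11037 in WT (median difference 0.42). T-cell markers summed to 14811 in dKO and 8576 in WT CD43+ cells (0.47), and neutrophil markers to 9181 in dKO and 29641 in WT (-2.36). In CD43- cells, neutrophil markers summed to 11043 in dKO and 10362 in WT (median difference -0.32), erythroid markers to 27088 in dKO and 27626 in WT (-0.15), and macrophage markers to 1484 in dKO and 1241 in WT (0.10). Mature B-cell markers, of resting cells, had a median difference of -0.24 in CD43- cells with 0 of 5 at 1.5-fold. Of the B-lineage markers, Vpreb1, a surrogate light chain gene of dividing precursors, differed by 0.91 in CD43- cells. The part of cell content in the replication differences was not tested.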

How the data were processed

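Total RNA from 4 sorted bone marrow samples was hybridised as biotin-labelled cRNA to 4 bead arrays, per the labels' protocols. The deposited table is a GenomeStudio 1.9.0 export without normalization, per the file headers. Per the file headers, it holds a mean bead intensity per probe averaged by the scanner software before deposit, bead SDs and bead numbers. Its deposited detection score is a fraction between 0 and 1, and 1 minus it served as detection p. The authors' second table holds RMA values on a log2 scale, per the file headers, which the series matrix repeats (column medians 3.77, 3.77, 3.79 and 3.78 for dKO CD43-, WT CD43-, dKO CD43+ and WT CD43+). The ratio columns the authors deposited beside them equal dKO over WT, against their heading, and were not used.

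Intensities were corrected with normexp (controls inferred from the detection p, offset 16), quantile normalized over the 4 arrays and log2 transformed in limma 3.58.1 (R 4.3.3). The offset shrinks differences of dim genes. A gene is its brightest probe. Detection means p under 0.01, and genes detected on either array of a comparison entered it. Genes detected on 1 array are given as bounds against the lowest detected value. With 1 array per group, genes were counted by size (1.5-fold and 2-fold), and the additive limma fit (lmFit, eBayes, Benjamini-Hochberg) ran over 9058 genes detected on any array. Precision is limited by the number of arrays. The steps were tested on simulated data. Of genes outside the list, the 4 other replication genes with the largest difference in CD43- cells, E2F and pocket protein genes, Btg1, Btg2 and cell markers could be named; single values of some of these are not reported here. The members and lists were chosen with earlier results of these data known. Alternatives were no background correction, offset 50, median scaling, the mean of detected probes, detection on all arrays, no filter and RMA.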

Additional observations from a re-analysis of the deposited data

Results flagged for a closer look

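For 7 genes the dKO minus WT difference pointed opposite ways in the 2 fractions, each by more than its bead 95% interval. Whether the fractions differ was not tested, since there was 1 array per group, and 4 of the 7 turned above 0 in CD43+ cells when arrays were scaled to a common median instead. Among helicase genes, Mcm3 was at 0.81 in CD43- and -0.17 in CD43+ cells, Mcm5 at 0.53 in CD43- and -0.20 in CD43+, Mcm7 at 0.37 in CD43- and -0.78 in CD43+, and Cdc45 at 0.95 in CD43- and -0.33 in CD43+ cells. The polymerase delta subunit Pold2 was at 0.41 in CD43- and -0.24 in CD43+ cells. Rrm2 of ribonucleotide reductase was at 0.60 in CD43- and -0.38 in CD43+ cells, and Chaf1b of the histone chaperone CAF-1 at 0.59 in CD43- and -0.38 in CD43+ cells. Groups of 1 array allowed no search for samples that stand apart.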

How the results depend on the processing

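No paired analysis was possible because each group had 1 array and the labels carry no replicate numbers. Leaving out a replicate was likewise not possible. The number of genes above 0 in the CD43- genotype comparison and their median kept their direction under each alternative run, with a median of 0.52 on RMA values to 0.92 with median scaling. Median scaling left the dKO minus WT median of all genes at 0.25 in CD43- and 0.32 in CD43+ cells. Under it the replication median was 0.92 in CD43- (39 of 39 above 0) and 0.29 in CD43+ cells (32 of 39). It put 13 genes in CD43- and 1 in CD43+ cells at 2-fold higher in dKO, against 7 in CD43- and 0 in CD43+ cells with quantile normalization. Of the genes below 0 by more than their bead 95% interval, Mcm3 (0.17), Mcm5 (0.080), Cdc45 (0.021) and Pold2 (0.086) turned above 0 in CD43+ and Pold1 (0.13) in CD43- cells. Without background correction, 2 genes reached 2-fold higher in dKO CD43- cells (7 with it, by measured values), and the additive fit called 4 for genotype and 6 for fraction, against 0 and 3. With offset 50 it called 2 for genotype, and with genes detected on all arrays 3 for genotype and 5 for fraction. On RMA values the fraction fit called 0, and reversed were Mcm4 in CD43+ (-0.94) and CD43- cells (-0.061), Uhrf1 in CD43+ (-0.0043), Ung in CD43- (-0.23) and Mcm6 for CD43- against CD43+ in dKO cells (0.11). The mean of detected probes gave 1 gene at least 2-fold lower in dKO CD43+ cells (0 by the brightest probe) and 1 lower in CD43- than CD43+ cells of WT mice (3 by the brightest), and reversed Mcm4 in CD43+ (-0.44) and Mcm6 (-0.76) and Ung (-0.072) in CD43- cells. For Mcm6 this mean contains the probe near background in dKO. The causes of the other changes were not tested. The difference of the genotype differences, an alternative added after seeing the data, was above 0 for 37 to 39 genes under the alternatives, with a median of 0.52 to 0.65. Dim genes limit precision: Pola1 and Slbp were not above background, and Orc1, Prim1 and Ccne1 lay near it.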
